A study of Homo sapiens with 11 samples.

Results

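Members of the TGF-beta, activin and BMP pathways were followed across all arrays of a study of TRIM58 in lung adenocarcinoma cells, 10 of 20249 genes named on the array. They are the ligand genes TGFB1, TGFB2, INHBA, INHBB, INHBE and BMP4, the secreted activin antagonist FST, the receptor gene TGFBR2, the intracellular inhibitor SMAD7 and the secreted matrix protein gene TGFBI. All probes named for these genes through their RefSeq accession were taken, which gave 1 probe per gene. The genes were chosen by pathway with the log2 differences between these groups already known, so their differences are given as a description, with no p-value. RNA came from 4 groups of stably transfected cells of the human lung adenocarcinoma lines A549 and HCC827, which are both long established. A549 mock cells carried the empty pMXs-Neo retroviral vector (3 replicates on 4 arrays, with mock arrays 1-1 and 1-2 from one control cell averaged). A549 TRIM58-WT cells carried that vector with the FLAG-tagged coding sequence of wild-type TRIM58 (3 replicates). HCC827 mock and HCC827 TRIM58-WT cells carried the same pair of vectors (2 replicates each). All cells of the 4 groups had gone through retroviral infection and selection with G418. Per the study, the A549 transfectants were isolated clones, whereas the HCC827 transfectants were crude, so a difference between A549 groups is one between clones. The labels do not say whether replicates of HCC827 came from separate cultures, and the spread between them may be technical.

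Ligands of this family are secreted dimers that bring together type I and type II serine/threonine kinase receptors at the cell surface. TGF-beta and activin receptors mainly phosphorylate SMAD2 and SMAD3, and BMP receptors mainly phosphorylate SMAD1, SMAD5 and SMAD9, which then enter the nucleus with SMAD4 and regulate transcription. Antagonists such as follistatin and noggin hold the ligands outside the cell, and the inhibitory SMADs limit the signal within it. TGF-beta slows the growth of many epithelial cells and can drive an epithelial-to-mesenchymal transition in lung carcinoma lines. SMAD7 and PMEPA1 are commonly used as readouts of TGF-beta signalling, and the ID genes as readouts of BMP signalling.

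A value here is the log2 of the background-subtracted spot signal, relative to the 75th percentile of the same array, so that 1 unit is a 2-fold difference. A probe was counted as well above background where the scanner software marked a share above 0.5 of its spots so. That held for 40.1% (A549 TRIM58-WT 2) to 49.99% (A549 TRIM58-WT 1) of the 42405 probes. The 75th percentile of the signal was 60.3 on A549 mock 3, 62.5 on A549 TRIM58-WT 2 and 56.6 on A549 TRIM58-WT 3. It was 90.5 to 125 on the other arrays, so scaling lifted those 3 relative to the rest. On none of the arrays labelled TRIM58-WT did the TRIM58 probe stand well above background (-4.84, -4.63 and -4.63 in A549 and -5.64 and -5.38 in HCC827). It was at -5.28, -5.33 and -5.18 on A549 mock arrays 1-1, 1-2 and 2, at -5.15 and -5.25 on the HCC827 mock arrays, and at -0.71 on A549 mock array 3, the only array on which it was well above background. Whether this probe lies within the coding sequence carried by the vector is not given in the sources used here, and a probe outside it would not see the transgene. The study's methods describe a check of the A549 clones for TRIM58 protein before use, which the arrays do not measure. The array values alone thus do not bear out the labels, and each direction below compares the TRIM58-WT labels with the mock labels. A549 mock 3 stood apart from the other mock arrays, with an SD of the log2 differences over 16924 probes of 0.68 to 0.82, against 0.29 to 0.46 among the others. A549 TRIM58-WT replicates 2 and 3 differed by less (0.24) than mock arrays 1-1 and 1-2 (0.29), which are of one control cell. TRIM58-WT 1 stood apart from TRIM58-WT 2 and 3 (0.82 and 0.79). Mock 3 lay nearest to mock 1-2 (0.68) and mock 1-1 (0.73), then to TRIM58-WT 2 and 3 (0.77 each), and farther from mock 2 (0.82). The 4 endothelial markers were well above background on no array, and EGFR, known to be amplified in HCC827, was at 4.22 to 4.31 in HCC827 mock and at -0.37 to 0.24 in A549 mock. Of the lung lineage markers, 2 of 4 were well above background on every HCC827 array and none on every A549 array.

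The promoters of the 5 genes with the largest differences in A549 are shown because TGFB1 and TGFB2 were high on the same arrays on which INHBB, FST and BMP4 were low. Each line holds the 250 bases before the RefSeq start (GRCh38.p14), 5′ to 3′ on the strand of the gene. Of the 10 genes, 9 had a promoter in the RefSeq table used, and for BMP4, which has 3 starts there, the first listed is shown. The stretches lie at chr1:218345086-218345335 (plus strand) for TGFB2, chr19:41353923-41354172 (minus strand) for TGFB1, chr14:53955051-53955300 (minus strand) for BMP4, chr2:120345886-120346135 (plus strand) for INHBB and chr5:53480379-53480628 (plus strand) for FST. Capitals mark matches, on either strand, to 4 motifs that do not overlap each other in these stretches. These are CAGAC (a SMAD binding element), GTCTAGAC (its palindromic form), GGCGCC (a GC-rich SMAD element) and TGANTCA (an AP-1 site).
TGFB2: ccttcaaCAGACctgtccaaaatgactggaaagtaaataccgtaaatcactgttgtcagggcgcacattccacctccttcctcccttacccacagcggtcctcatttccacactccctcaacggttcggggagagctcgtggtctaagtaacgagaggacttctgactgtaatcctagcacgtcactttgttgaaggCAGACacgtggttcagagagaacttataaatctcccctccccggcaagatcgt
TGFB1: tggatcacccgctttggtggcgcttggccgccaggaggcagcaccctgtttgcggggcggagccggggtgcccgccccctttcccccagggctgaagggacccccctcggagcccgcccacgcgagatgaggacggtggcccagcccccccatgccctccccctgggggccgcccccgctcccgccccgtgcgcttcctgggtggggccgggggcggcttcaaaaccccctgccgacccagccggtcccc
BMP4: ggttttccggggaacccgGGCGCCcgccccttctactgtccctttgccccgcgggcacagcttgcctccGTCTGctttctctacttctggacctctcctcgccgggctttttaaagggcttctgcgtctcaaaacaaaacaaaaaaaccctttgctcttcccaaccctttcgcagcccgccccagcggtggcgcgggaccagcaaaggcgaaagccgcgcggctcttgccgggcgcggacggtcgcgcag
INHBB: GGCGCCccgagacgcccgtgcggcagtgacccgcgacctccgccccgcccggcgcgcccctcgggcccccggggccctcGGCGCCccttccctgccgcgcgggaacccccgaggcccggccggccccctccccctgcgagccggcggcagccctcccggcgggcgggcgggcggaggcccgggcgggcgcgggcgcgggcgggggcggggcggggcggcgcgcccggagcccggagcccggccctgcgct
FST: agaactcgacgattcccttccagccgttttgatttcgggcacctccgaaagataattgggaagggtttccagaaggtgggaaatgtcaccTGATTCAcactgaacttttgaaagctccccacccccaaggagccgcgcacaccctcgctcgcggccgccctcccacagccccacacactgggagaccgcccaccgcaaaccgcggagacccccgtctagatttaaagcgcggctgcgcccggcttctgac
TGFB2 held 2 matches to CAGAC, 243 and 53 bases before the start, and BMP4 held 1, on the opposite strand, together with 1 match to GGCGCC. INHBB held 2 matches to GGCGCC and FST 1 match to TGANTCA, whereas TGFB1 held no match to any of the 4. Over the 35116 promoter stretches of the same length in the table, CAGAC was present in 38.0%, GGCGCC in 16.4%, TGANTCA in 6.57% and GTCTAGAC in 0.182%. G and C made up 89.6% of the INHBB stretch and 50.4% of that of TGFB2, against a median of 58.0% over all stretches. A match to so short a motif is a description of the letters and not a bound site.

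The TGF-beta ligand genes TGFB1 and TGFB2 were higher on the A549 arrays labelled TRIM58-WT. TGFB1, on chromosome 19, was at -1.33, -1.19, -1.16 and 0.72 on A549 mock arrays 1-1, 1-2, 2 and 3, and at 1.72, 2.08 and 2.30 in A549 TRIM58-WT replicates 1, 2 and 3. Every TRIM58-WT array lay above every mock array, and mock 3 lay between the other mock arrays and the TRIM58-WT arrays. The mean was 2.03 ± 0.29 (SD, n = 3) in TRIM58-WT and -0.57 ± 1.12 (SD, n = 3) in mock, a difference of 2.60 on the log2 scale (SE 0.54), or 6.07-fold. It was 3.25 without mock replicate 3 and 1.67 with normexp background correction, an alternative that adds an offset of 50 to each signal. In HCC827, TGFB1 was at -0.80 and -1.06 in mock and at -0.64 and -0.70 in TRIM58-WT, a difference of 0.26 (SE 0.15). The groups of HCC827 did not overlap, but the difference was far smaller than in A549.

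TGFB2, the second TGF-beta ligand measured here, lies on chromosome 1 and had nearly the same difference in A549. It was at -2.79, -2.98 and -2.83 on mock arrays 1-1, 1-2 and 2, none of them well above background, and at -1.17 on mock 3. In TRIM58-WT it was at 0.01, 0.43 and 0.49, well above background on all 3 arrays. The groups did not overlap, and the measured difference was 2.61 (SE 0.48), with 1 of 4 mock arrays well above background, and 0.96 with normexp. In HCC827 the probe was well above background throughout, at -0.88 and -1.03 in mock and at -0.62 and -0.81 in TRIM58-WT, a difference of 0.24 (SE 0.15). TGFB3, the remaining TGF-beta ligand gene, was well above background on no A549 array and was not tested there.

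**Figure D1:**
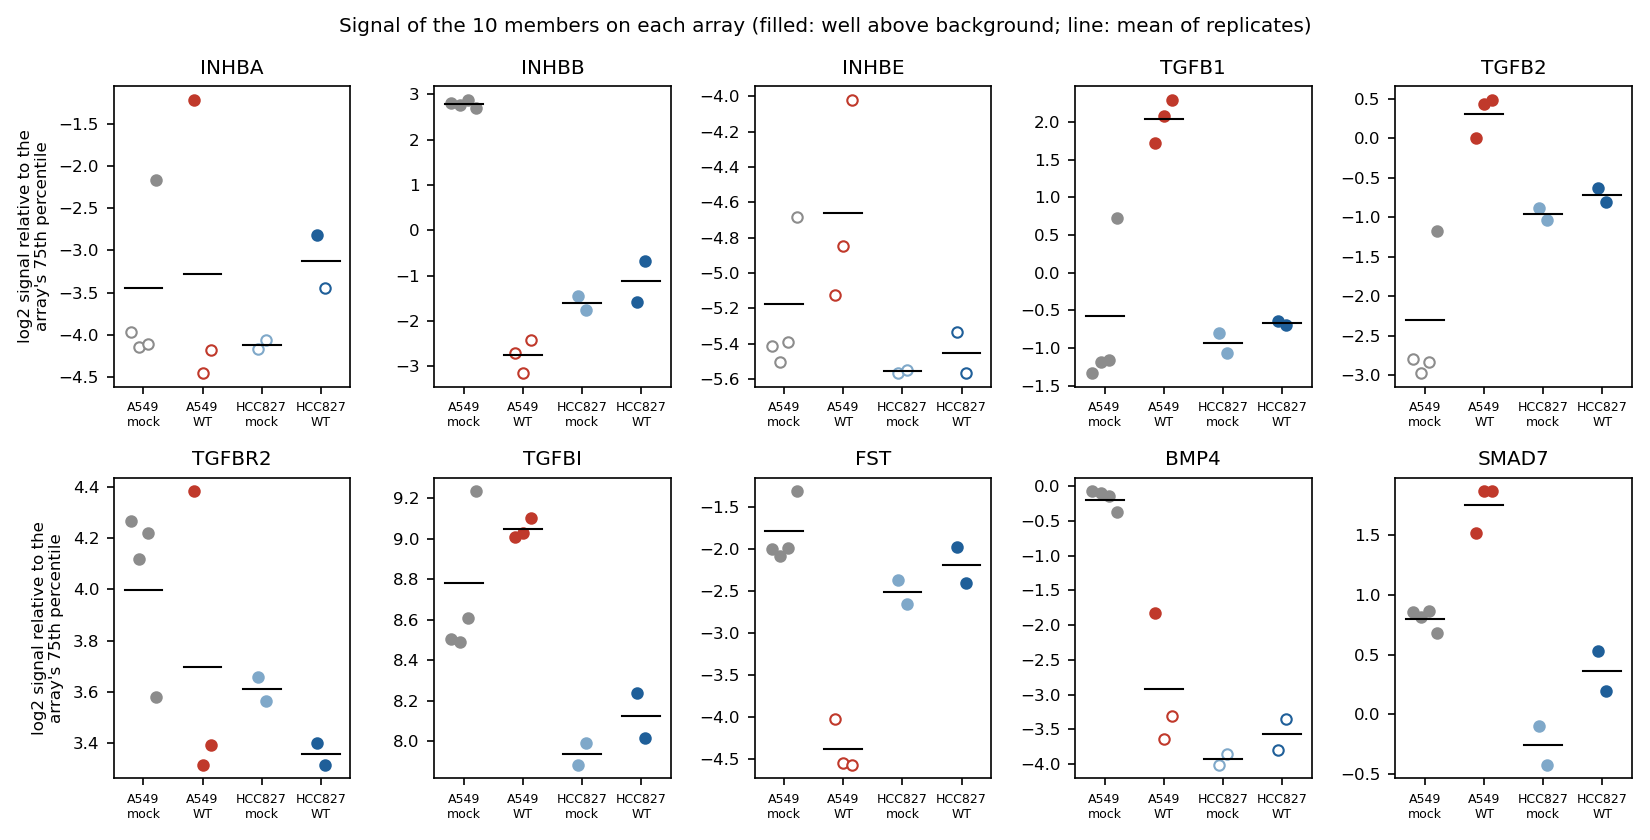
Log2 signal of each of the 10 genes relative to the array's 75th percentile (y axis, its range set for each gene) in the 4 groups (x axis; WT, TRIM58-WT). Points are arrays, filled where the probe was well above background, and lines are means of replicates, with mock arrays 1-1 and 1-2 of A549 averaged first. INHBB, FST and BMP4 lie lower and TGFB1, TGFB2 and SMAD7 higher on all A549 TRIM58-WT arrays than on all A549 mock arrays.

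Among the activin subunit genes, INHBB showed the largest difference of the 10 genes in A549. INHBB encodes the beta B subunit of activin B and inhibin B, and lies on chromosome 2. It was at 2.80, 2.76, 2.88 and 2.70 on the 4 A549 mock arrays and at -2.70, -3.15 and -2.42 in TRIM58-WT, where it was well above background on no array. The 4 mock arrays lay close together, so mock 3 did not stand apart for this gene. The TRIM58-WT mean was at least 40.2-fold lower than the mock mean, taking the lowest signal well above background on an array as the floor, and the measured difference was -5.54 (SE 0.22). With normexp it was -2.92, so the bound holds for the scaling used here and not under that correction. In HCC827, INHBB was well above background on all 4 arrays, at -1.45 and -1.77 in mock and at -1.58 and -0.67 in TRIM58-WT. These groups overlapped, with a difference of 0.48 (SE 0.35).

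INHBA, on chromosome 7, encodes the beta A subunit of activin A, and its signal varied more within the groups than between them. It was well above background on 3 arrays only, at -2.17 on A549 mock 3, -1.22 on A549 TRIM58-WT 1 and -2.82 on HCC827 TRIM58-WT 1. The other A549 arrays lay between -4.45 and -3.96, those of HCC827 mock at -4.17 and -4.06, and HCC827 TRIM58-WT 2 at -3.44. The A549 groups overlapped, and no group had the probe well above background on every array, so INHBA was not tested in any comparison. INHBE, on chromosome 12, encodes the beta E subunit. It was well above background on none of the 11 arrays, with values from -5.57 to -4.02, and no direction is given for it.

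BMP4, on chromosome 14, encodes a ligand of the BMP receptors and was lower on the A549 arrays labelled TRIM58-WT. It was at -0.07, -0.10, -0.14 and -0.36 on the A549 mock arrays and at -1.82, -3.64 and -3.30 in TRIM58-WT, and of the latter only replicate 1 was well above background. The groups did not overlap, although TRIM58-WT 1 lay between mock and the other TRIM58-WT arrays. The measured difference was -2.72 (SE 0.47), and -0.76 with normexp. In HCC827 the probe was well above background on no array, at -4.01 and -3.85 in mock and at -3.79 and -3.35 in TRIM58-WT, and BMP4 was not tested there.

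FST, on chromosome 5, encodes follistatin, a secreted protein that binds activins and blocks their access to the receptors. Like INHBB, it was well above background on all A549 mock arrays and on no A549 TRIM58-WT array. It was at -2.0, -2.08, -1.98 and -1.31 in mock and at -4.02, -4.55 and -4.57 in TRIM58-WT, so the groups did not overlap. Mock 3 was the highest array after scaling (signal 24.4 before it, against 24.5 on mock 1-1). TRIM58-WT was at least 1.81-fold lower, and the measured difference was -2.60 (SE 0.27). With normexp it was -0.33, a smaller difference than that bound. In HCC827 it was at -2.37 and -2.66 in mock and at -1.97 and -2.41 in TRIM58-WT, which overlapped, with a difference of 0.33 (SE 0.22).

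The receptor gene TGFBR2, on chromosome 3, encodes the type II receptor that binds TGF-beta, and was well above background on all 11 arrays. It was at 4.27, 4.12, 4.22 and 3.58 on the A549 mock arrays and at 4.38, 3.32 and 3.39 in TRIM58-WT. Mock 3 lay with TRIM58-WT 2 and 3, and TRIM58-WT 1 lay with the other mock arrays, so that the groups overlapped (difference -0.30, SE 0.35). In HCC827 it was at 3.66 and 3.56 in mock and at 3.40 and 3.32 in TRIM58-WT, with no overlap and a difference of -0.25 (SE 0.13).

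SMAD7, on chromosome 18, encodes an inhibitory SMAD that TGF-beta itself induces, and it was higher on the TRIM58-WT arrays of both lines. In A549 it was at 0.86, 0.82, 0.87 and 0.69 in mock and at 1.52, 1.87 and 1.87 in TRIM58-WT, with no overlap. The difference was 0.96 (SE 0.17), or 1.94-fold, just under the 2-fold that a call needed here. In HCC827 it was at -0.10 and -0.42 in mock and at 0.53 and 0.20 in TRIM58-WT, with no overlap and a difference of 0.62 (SE 0.20), or 1.54-fold.

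TGFBI, on chromosome 5, encodes a secreted matrix protein induced by TGF-beta, and had its probe well above background on all 11 arrays. It was at 8.50, 8.49, 8.61 and 9.23 on the A549 mock arrays and at 9.01, 9.03 and 9.10 in TRIM58-WT. Mock 3 was the highest of all after scaling (signal 36310 before it, against 37000 on mock 1-2 and 49700 on TRIM58-WT 1). The groups overlapped, and the difference was 0.27 (SE 0.23). That difference turned to -0.10 when the median of each array was subtracted in place of the 75th percentile. In HCC827 it was at 7.88 and 7.99 in mock and at 8.24 and 8.02 in TRIM58-WT, a difference of 0.19 (SE 0.15).

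**Figure D2:**
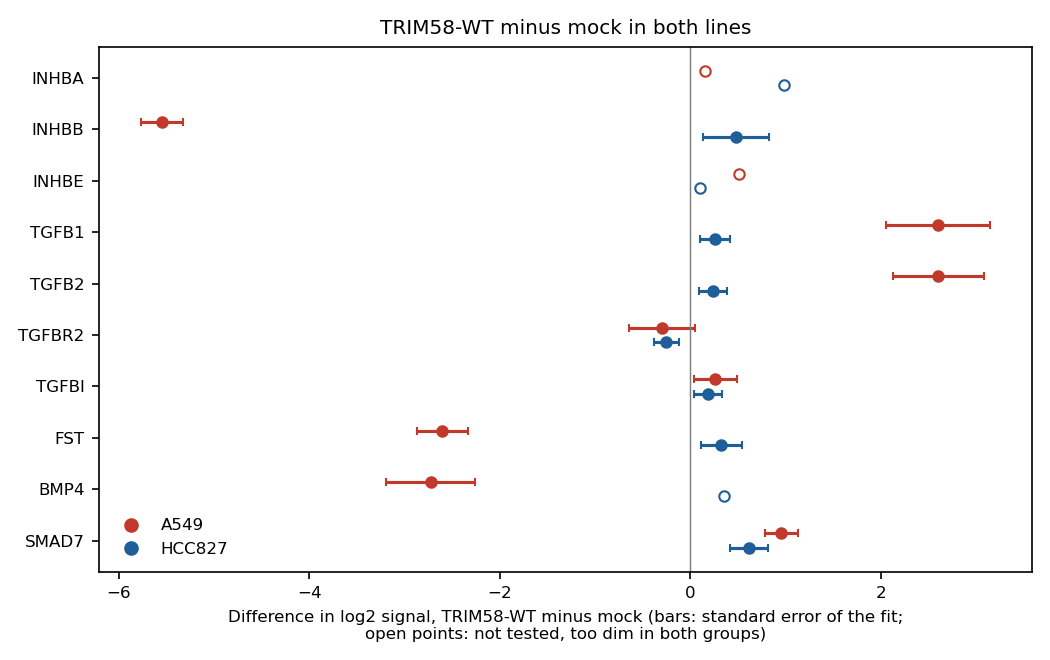
Difference in log2 signal between TRIM58-WT and mock (x axis) for the 10 genes (y axis) in A549 and HCC827. Bars are standard errors of the limma fit, and open points without bars are genes that were not tested because the probe was too dim in both groups. In A549 the values run from -5.54 for INHBB to 2.61 for TGFB2, and in HCC827 from -0.25 for TGFBR2 to 0.98 for INHBA, which was not tested.

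A probe was tested where all arrays of 1 or more of the groups compared had it well above background. It was called at a Benjamini-Hochberg adjusted p under 0.05 in limma and a change of 2-fold or more. In A549, 8 of the 10 genes were tested and 5 were called (TGFB1 and TGFB2 higher, INHBB, FST and BMP4 lower), where 7.96% of the 11187 genes tested, and 6.92% of all probes tested, were called. The 8 tested include TGFB2, which passed only through TRIM58-WT, and INHBB, FST and BMP4, which passed only through mock, so these 4 had to differ, and the counts are a description. In 6 of the 8 the replicates of the groups did not overlap, as in 33.9% of all genes tested. In HCC827, 7 were tested and none was called by limma, where 1.09% of 12199 genes (0.336% higher and 0.754% lower) and 0.884% of probes were called. In 5 of the 7 the replicates of the groups did not overlap, as in 59.3% of all genes tested. Of these 7, 1 had an unadjusted p under 0.05, beside 2673 of all 12199 genes, and the methods' t-test called none. For the difference between the lines (all 10 replicates, called at the adjusted p alone), 8 were tested and 3 were called, INHBB, FST and BMP4, where 4.61% of 12829 genes and 3.86% of probes were called. The change in A549 minus that in HCC827 was -6.03 (SE 0.43) for INHBB, -2.93 (SE 0.41) for FST and -3.08 (SE 0.67) for BMP4, the last with the HCC827 values below background. It was 2.34 (SE 0.76) for TGFB1 and 2.37 (SE 0.67) for TGFB2, neither called, and 0.33 (SE 0.28) for SMAD7, where subtracting the median of each array turned it to -0.06. The calls of INHBB and FST in A549 held when any single replicate was left out. Those of TGFB1, TGFB2 and BMP4 were lost without mock replicate 1, mock replicate 2, TRIM58-WT replicate 2 or TRIM58-WT replicate 3, and that of TGFB1 also without TRIM58-WT replicate 1, where SMAD7 was called (1.07). INHBB and FST were the 2 genes called in the first 4 of these fits. Without mock replicate 3 and TRIM58-WT replicate 1 together, 6 were called, 3 higher and 3 lower. The difference between the lines stayed called for INHBB and FST without any single replicate, and for BMP4 only without A549 mock replicate 3 or TRIM58-WT replicate 1. It was called for TGFB1 (2.98) and TGFB2 (2.93) without A549 mock replicate 3.

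The arrays lay on 2 slides, each with mock and TRIM58-WT arrays of A549. On slide 1 (1 TRIM58-WT and 2 mock arrays) the differences were 2.97 for TGFB1, 2.82 for TGFB2, -5.54 for INHBB, -2.03 for FST, -1.71 for BMP4 and 0.65 for SMAD7. On slide 2 (2 and 2 arrays) they were 2.42, 2.54, -5.51, -2.86, -3.24 and 1.12 in the same order. The direction was thus the same within each slide for these 6 genes. It was not for INHBA, at 2.82 on slide 1 and -1.16 on slide 2, nor for TGFBR2, at 0.14 and -0.49. The HCC827 arrays were all on slide 1.

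**Figure D3:**
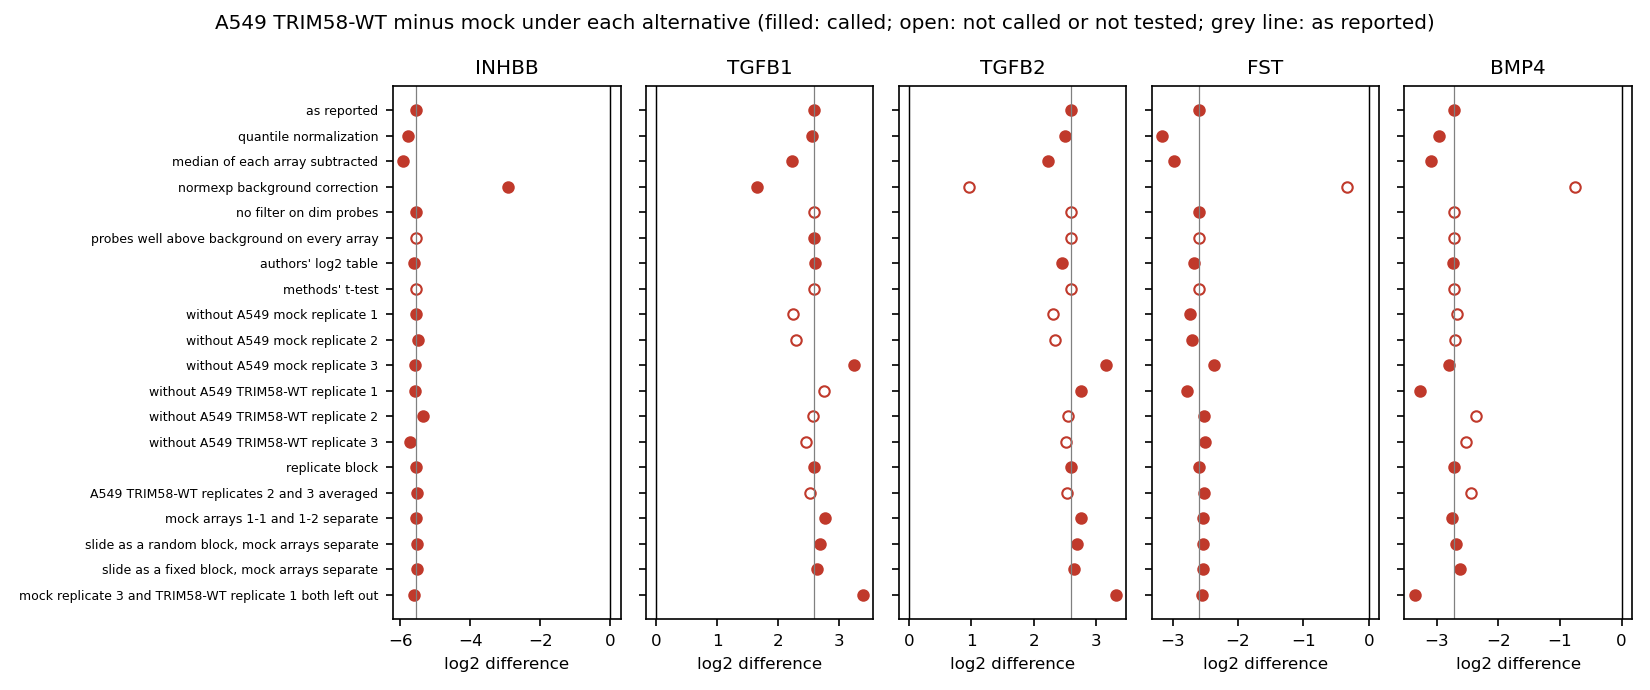
Difference in log2 signal between A549 TRIM58-WT and A549 mock (x axis) for the 5 called genes as reported and under each of 19 alternatives (y axis). Filled points were called, open points were not called or not tested, the grey line marks the value as reported and the black line 0. All points of a gene lie on one side of 0, whereas the calls of TGFB1, TGFB2 and BMP4 depend on single replicates.

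Across the 4 groups, the order of levels differed from gene to gene. INHBB was highest in A549 mock, followed by HCC827 TRIM58-WT and HCC827 mock, whose ranges overlapped, and lowest in A549 TRIM58-WT. FST had the same order, but there the ranges of A549 mock and HCC827 TRIM58-WT also overlapped. TGFB2 was highest in A549 TRIM58-WT, followed by HCC827 TRIM58-WT, HCC827 mock and A549 mock, with no overlap between neighbours. TGFB1 was also highest in A549 TRIM58-WT, whereas A549 mock overlapped with HCC827 TRIM58-WT through mock 3. SMAD7 went from A549 TRIM58-WT through A549 mock and HCC827 TRIM58-WT to HCC827 mock with no overlap. TGFBI had that order too, with the A549 groups overlapping. BMP4 was highest in A549 mock, and its values in the other 3 groups were mostly below background. TGFBR2 was the gene with the narrowest range of group means among those well above background throughout, from 3.36 ± 0.06 (SD, n = 2) in HCC827 TRIM58-WT to 4.0 ± 0.36 (SD, n = 3) in A549 mock, and of its neighbours in that order only the HCC827 groups did not overlap.

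Between the control lines, 8 of the 10 genes were tested and limma called 3, all higher in A549 mock than in HCC827 mock, where 31.9% of 12394 genes and 30.3% of probes were called. In 6 of the 8 the replicates of the lines did not overlap, as in 72.1% of all genes tested. INHBB was higher by 4.4 (SE 0.18), or 21.0-fold. BMP4 was at least 8.20-fold higher, with HCC827 mock not well above background (measured difference 3.73, SE 0.17). It passed the filter only through A549 mock, so it had to differ. SMAD7 was higher by 1.06 (SE 0.18), or 2.08-fold, and was not called without HCC827 mock replicate 2. TGFB2 was lower in A549 mock, by a measured -1.34 (SE 0.57), and was called only without A549 mock replicate 3 (-1.90) or on slide 1 alone (-1.86). INHBB and BMP4 were thus lower in A549 TRIM58-WT and in both HCC827 groups than in A549 mock. The comparisons within A549 and between the control lines share the A549 mock arrays.

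For the 4 genes well above background on all 11 arrays, the nearest profile was sought among 9525 genes outside the pathway lists that were also well above background throughout. Likeness was the root mean square distance between profiles centred over the 10 replicates, in log2 units. FZD2 was nearest to TGFB1, at 0.24, where the median distance over all candidates was 1.40. GULP1 was nearest to TGFBR2 (0.12, median 0.62), RAVER1 to TGFBI (0.12, median 0.62) and SAE1 to SMAD7 (0.18, median 0.83). A small distance to TGFBR2 or TGFBI came easily, since these genes varied little.

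The wider pathway was described by 141 other genes in 6 lists (ligands, receptors, extracellular regulators, SMADs and intracellular regulators, TGF-beta and activin response genes, and BMP response genes), of which 138 were named on the array. In A549, 71 were tested and 19 were called, 11 higher and 8 lower, where 3.89% of all genes tested were called higher and 4.08% lower. Of these 71 the replicates of the groups did not overlap in 42, beside 33.9% of all genes tested. The median difference was 0.07 over these 71 genes and 0.03 over all genes tested.

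BMP2 and BMP6 were called lower in A549, as BMP4 was. Of the other ligand genes, 8 were tested in A549 and 3 were called, all lower, with a median of -1.11 over the 8. BMP6, a BMP receptor ligand that also regulates iron, fell by 5.29 (SE 0.83, adjusted p = 0.0159 in limma) and was well above background on 1 of 3 TRIM58-WT arrays. GDF15, a stress-induced distant member of the family, fell by 4.28 (SE 0.38, adjusted p = 0.00275 in limma). BMP2, a close relative of BMP4, fell by a measured 3.32 (SE 0.64, adjusted p = 0.0295 in limma) and was well above background on 2 of 3 TRIM58-WT arrays. BMP7 was at -2.12 and was not called. BMP6 and BMP2 passed the filter only through mock, so these had to differ. Where every array had to have the probe well above background, 4 ligand genes were tested, with a median of 0.02. GDF15 was then the 1 called. With no filter on dim probes, 2 of 27 were called, both lower, with a median of 0.31.

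Among receptor genes, 6 were tested besides TGFBR2 and 2 were called. BMPR1B, a type I BMP receptor, was at least 2.0-fold higher in TRIM58-WT (adjusted p = 0.0268 in limma), with mock well above background on no array. It passed the filter only through TRIM58-WT, so it had to differ, and it was called in 6 of 18 alternatives. BAMBI, a pseudoreceptor that dampens TGF-beta and BMP signals, fell by 1.93 (SE 0.35, adjusted p = 0.0244 in limma). TGFBR1, the type I receptor that TGFBR2 activates, was well above background on all 4 mock arrays and on no TRIM58-WT array, with a measured difference of -0.98 that was not called. Of the extracellular regulators, 9 were tested besides FST and 3 rose. These were FSTL1, a follistatin-like glycoprotein, by 1.69 (SE 0.21, adjusted p = 0.00818 in limma), LTBP3, which tethers latent TGF-beta to the matrix, by 1.5 (SE 0.21, adjusted p = 0.0110 in limma), and THBS1, which can activate latent TGF-beta, by 1.5 (SE 0.24, adjusted p = 0.0170 in limma).

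Few SMADs and intracellular regulators were called in A549, as over all genes tested. Of 21 tested besides SMAD7, 13 had replicates of the groups that did not overlap, beside 33.9% of all genes tested. An unadjusted p under 0.05 in limma was found for 9, beside 3099 of all 11187 genes. The median was 0.03, and 1 gene (4.76%) was called, beside 7.96% of all genes tested. It was PMEPA1, a TGF-beta-induced gene whose product restrains SMAD2 and SMAD3, which rose by 2.79 (SE 0.48, adjusted p = 0.0210 in limma). The receptor-regulated SMAD2 and SMAD3 and the shared SMAD4 were at -0.23, 0.54 and -0.15, and none was called. The inhibitory SMAD6 was at -1.17 and was not called, so that it lay on the other side of 0 from SMAD7.

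With the filter used here, TGF-beta and activin response genes were called mostly higher and BMP response genes mostly lower in A549. Of 24 other TGF-beta and activin response genes tested, 7 rose and 1 fell, with a median of 0.78 (5 and 1, and 0.41, when the median of each array was subtracted). COL1A1, a collagen chain, was at least 7.13-fold higher, with mock well above background on no array (adjusted p = 0.0105 in limma). IL11, a cytokine induced by TGF-beta, rose by 4.24 (SE 0.62, adjusted p = 0.0128 in limma). PMEPA1 and THBS1, given above, are also on this list. Also called were CCN2, a matricellular protein gene, at least 2.49-fold higher, RUNX1, a transcription factor gene, higher by 1.00, and ANGPTL4, a secreted regulator of lipoprotein lipase, which fell by 1.93 (SE 0.21, adjusted p = 0.00492 in limma). Of 10 other BMP response genes tested, 4 fell and 1 rose, with a median of -1.27 (6 and 1, and -1.63, when the median of each array was subtracted). ID4, well above background on 1 of 3 TRIM58-WT arrays, fell by a measured 4.19 (SE 0.85, adjusted p = 0.0334 in limma) and ID1 by 1.36 (SE 0.30, adjusted p = 0.0443 in limma), both genes of inhibitors of basic helix-loop-helix factors. HEY1, a transcriptional repressor gene, was at least 2.74-fold lower (adjusted p = 0.0454 in limma), and BAMBI is given above. RUNX2, a transcription factor gene of bone formation, was at least 4.12-fold higher (adjusted p = 0.0129 in limma). ID2 and ID3 were at -0.44 and -0.27 and were not called. COL1A1, CCN2 and RUNX2 passed the filter only through TRIM58-WT, and ID4 and HEY1 only through mock, so these had to differ. Where every array had to have the probe well above background, 4 of 21 TGF-beta and activin response genes rose and 1 fell (median 0.55). Of 7 BMP response genes, 2 then fell and 0 rose (median -1.17). With no filter on dim probes, 3 of 32 and 1 of 17 rose, and 1 and 0 fell (medians 0.78 and -0.44).

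**Figure D4:**
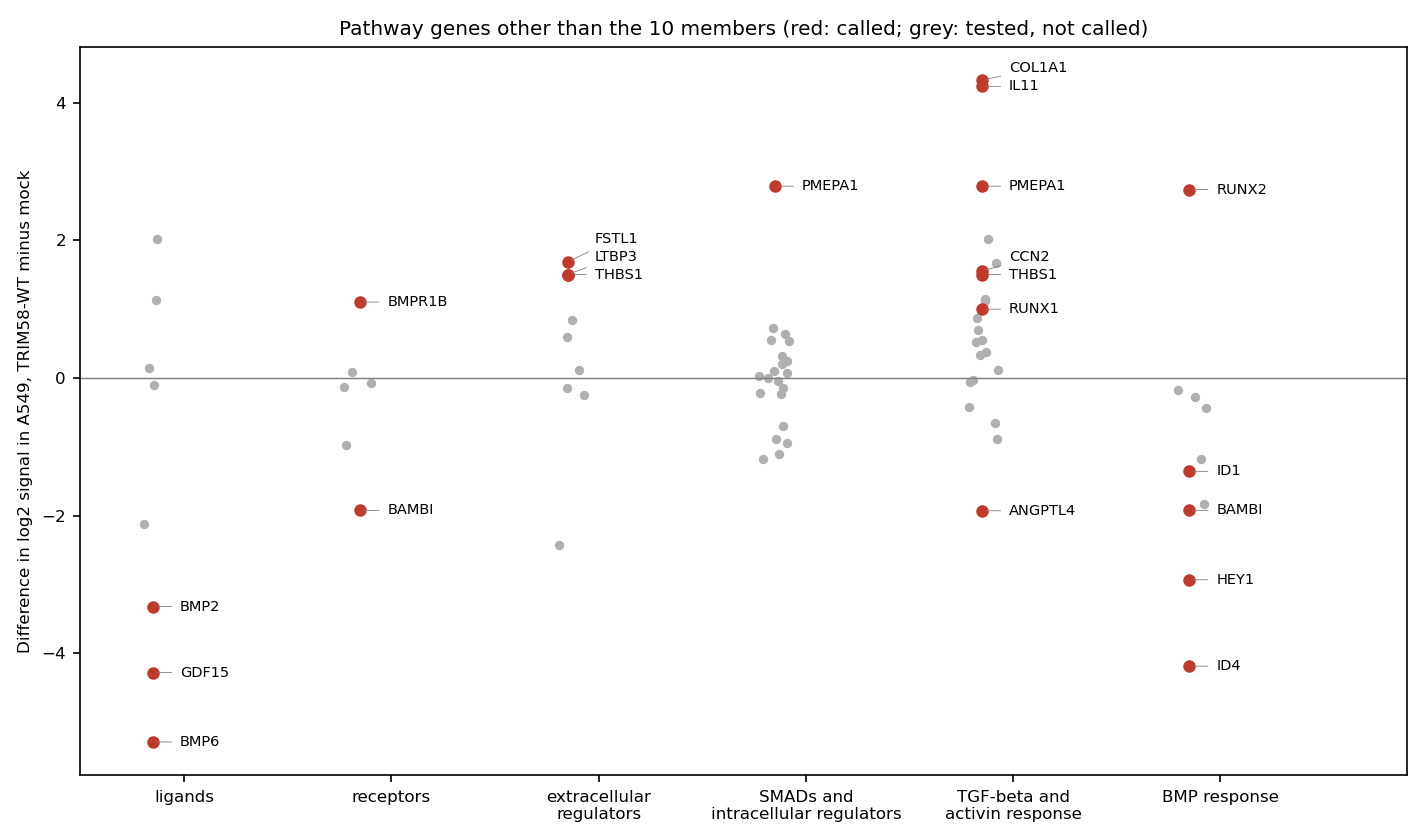
Difference in log2 signal between A549 TRIM58-WT and A549 mock (y axis) for the tested genes of each pathway list other than the 10 genes (x axis), less 1 gene that is counted in the text but not reported. Red points were called (adjusted p under 0.05 in limma and at least 2-fold) and are named, and grey points were tested and not called. A gene on 2 lists appears under both. The 3 called ligand genes lie below 0, and of the called TGF-beta and activin response genes shown, ANGPTL4 lies below it and the others above it.

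These calls rest on few replicates. Of the 19 genes, 2 were called without mock replicate 1 and 4 without mock replicate 2. Leaving out TRIM58-WT replicate 2 or 3 left 5 and 2 of them, whereas leaving out mock replicate 3 left all 19 and leaving out TRIM58-WT replicate 1 left 16. With the median of each array subtracted, which moves the median over all probes tested from 0.06 to -0.31, 14 of the 19 were called and RUNX1, BMPR1B, THBS1, LTBP3 and CCN2 were not. The split of all other pathway genes called then went from 11 higher and 8 lower to 7 higher and 13 lower.

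Epithelial markers differed between the same arrays. Of 6 epithelial markers, all A549 mock arrays had 5 well above background and all A549 TRIM58-WT arrays had 3. The log2 of their summed signal was 10.1 to 10.4 in A549 mock and 9.11 to 9.37 in A549 TRIM58-WT. KRT19 went from 6.97 ± 0.76 (SD, n = 3) to -2.53 ± 0.06 (SD, n = 3), well above background on no TRIM58-WT array. The log2 of the summed signal of the 8 mesenchymal or fibroblast markers was 4.82 to 7.48 in A549 mock and 6.54 to 8.51 in A549 TRIM58-WT. In each group 6 of these 8 were well above background on no array, but not the same 6. COL1A1 was well above it on 0 of 4 mock and 3 of 3 TRIM58-WT arrays. LUM went the other way, with 3 of 4 mock arrays (mean -1.39) and 0 of 3 TRIM58-WT arrays (mean -4.64). COL1A1 is on both the mesenchymal or fibroblast list and the response list. In HCC827, all 6 epithelial markers were well above background on every array, and the log2 of their summed signal was 9.82 to 9.83 in mock and 10.1 to 10.2 in TRIM58-WT. That of the mesenchymal or fibroblast markers was 1.07 to 1.46 in HCC827 mock and 2.28 to 2.82 in HCC827 TRIM58-WT, with VIM at 1.05 ± 0.32 and 2.48 ± 0.40 (SD, n = 2). That of the 4 lung lineage markers was 5.89 to 6.11 and 4.64 to 4.98, with NKX2-1 at 4.72 ± 0.18 and 3.65 ± 0.04 (SD, n = 2). The part of these shifts in the pathway values was not tested.

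In HCC827, with 2 replicates in each group, limma called 1 of 65 other pathway genes tested, and 1.09% of all genes tested were called. At an unadjusted p under 0.05 there were 23 of the 65, beside 2673 of all 12199 genes. Of 10 BMP response genes tested, 7 were under it, with a median of -0.31 over the 10. It was ID4, which fell by 1.67 (SE 0.15, adjusted p = 0.0381 in limma), the same direction as in A549, from 0.12 ± 0.08 (SD, n = 2) in mock to -1.55 ± 0.15 (SD, n = 2) in TRIM58-WT. The call of ID4 was lost without HCC827 mock replicate 1, mock replicate 2 or TRIM58-WT replicate 1. Of the 19 genes called in A549, 14 were tested in HCC827, and 8 of these had the same sign there. ID1, ID2 and ID3 were at -0.75, -0.50 and -0.66 in HCC827 and were not called. The median difference was 0.09 over the 65 genes and 0.01 over all genes tested.

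The difference of the change between the lines was called for 9 of 81 other pathway genes tested, 4 higher and 5 lower in A549, where 2.11% of all genes were called higher and 2.49% lower. For BMP2, the change in A549 minus that in HCC827 was -5.08 (SE 0.94, adjusted p = 0.0247 in limma), since it fell in A549 and was at 1.76 in HCC827, where mock was not well above background. GDF15 differed by -4.39 (SE 0.54, adjusted p = 0.00494 in limma) and LEFTY1, a secreted inhibitor of nodal, by 3.17 (SE 0.53, adjusted p = 0.0169 in limma), with LEFTY1 well above background on no A549 array. BMP2, LEFTY1, BMPR1B, COL1A1, MSX1 and RUNX2 passed the filter only through groups in which they were bright, so the counts are a description. Where every array had to have the probe well above background, 3 of the 9 were called. None of the 24 SMADs and intracellular regulators and none of the 11 extracellular regulators tested were called by limma. An unadjusted p under 0.05 was found for 7 and 5 of them, beside 2679 of all 12829 genes tested. Without HCC827 mock replicate 1 or 2, or TRIM58-WT replicate 1, 1 of the 9 was called, as without A549 mock replicate 1. It was 3 or 4 of the 9 without A549 mock replicate 2, A549 TRIM58-WT replicate 2 or 3, or HCC827 TRIM58-WT replicate 2.

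Between the control lines, 41 of 74 other pathway genes tested were called, 28 higher and 13 lower in A549 mock, where 15.5% of all genes were called higher and 16.4% lower. Both response lists and the ligands had more genes called higher than lower. Of 11 BMP response genes tested, 5 were called higher and 2 lower (RUNX2 and SMAD9). Of 23 TGF-beta and activin response genes, 10 were called higher and 5 lower, and of 8 other ligand genes 4 and 2. BMP6 was at least 31.6-fold, BMP2 at least 27.3-fold and BMP7 at least 6.83-fold higher (adjusted p = 0.00404, 0.00312 and 0.00119 in limma), with HCC827 mock well above background on no array. SMAD6, an inhibitory SMAD of the BMP branch, was higher by 3.08 (SE 0.32, adjusted p = 0.00150 in limma) and ID3 by 1.75 (SE 0.20, adjusted p = 0.00196 in limma). ATOH8, a transcription factor gene induced by BMPs, was at least 13.5-fold higher (adjusted p = 0.000639 in limma). FSTL3, a relative of follistatin that also binds activins, was higher by 4.12 (SE 0.25, adjusted p = 0.000311 in limma), and HTRA1, a secreted protease, at least 204-fold (adjusted p = 9.7e-05 in limma). ENG, a co-receptor of the endothelial TGF-beta receptor complex, was at least 6.22-fold lower in A549 mock (adjusted p = 0.000197 in limma), and CCN1, a matricellular protein gene, was lower by 4.32 (SE 0.52, adjusted p = 0.00254 in limma). BMP6, BMP2, BMP7, ATOH8 and HTRA1 passed the filter only through A549 mock, and ENG only through HCC827 mock, so these had to differ. Where every array had to have the probe well above background, 20 of the 41 were called. On slide 1 alone, 41 of these 41 genes were called.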

How the data were processed

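Agilent SuperPrint G3 human expression arrays (8×60k) were hybridised in 1 colour with RNA of A549 and HCC827 stable transfectants. The authors scanned the arrays and deposited the intensity of each spot, background-subtracted and detrended by Agilent Feature Extraction (11.5.1.1 in the file headers, 10.7 in the submitters' processing notes), and not scaled across arrays. Their deposited log2 table of these arrays served as an alternative. The paper's methods give GeneSpring GX with a threshold of 2-fold and, after Benjamini-Hochberg adjustment, p under 0.05, and Welch's test for 2 groups (called the methods' t-test here).

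In limma 3.58.1 under R 4.3.3, control and outlier spots were left out, spots were averaged by probe, and the log2 75th percentile of the 42405 probes of each array was subtracted. Groups were taken from the labels. Probes that all arrays of 1 or more of the groups compared had well above background were fitted with lmFit and eBayes and adjusted over all of them. Where 1 probe per gene was needed, the brightest over the replicates of the comparison was used. A RefSeq accession stood beside 28302 probes, of which 27241 got a name from a RefSeq table of GRCh38.p14. The array was designed on hg19, so no probe coordinates are given. In a fold given as "at least", the dim group was set on each array at the lowest signal of any probe well above background, or at its own signal if higher. The number of arrays limits the precision.

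The 10 genes, the lists and the rule for named genes (the 10 genes on every array with no p-value, up to 5 called genes per list, direction and comparison, and the nearest profiles) were chosen with earlier results of these data known. The alternatives run were a median shift, quantile normalization, normexp on the median spot signal and local background (offset 50), other filters, the authors' table, the methods' t-test, the replicate number or slide as a block, mock arrays 1-1 and 1-2 kept separate, TRIM58-WT replicates 2 and 3 averaged, and each replicate left out. The slide as a fixed block, values within slides, slide 1 alone, and leaving out mock replicate 3 with TRIM58-WT replicate 1 were chosen after seeing the data. One gene of the lists is in the counts and is not reported here. The fits were tested on simulated data. Plots used matplotlib 3.10.9 under Python 3.11.15.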

Additional observations from a re-analysis of the deposited data

Results flagged for a closer look

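The change between TRIM58-WT and mock differed between A549 and HCC827 by the test of the difference for 12 genes, given as the change in A549 minus that in HCC827 on the log2 scale. Among the 10 genes, where the values are a description, it was -6.03 for INHBB (-5.54 in A549, 0.48 in HCC827), -2.93 for FST (-2.60 and 0.33) and -3.08 for BMP4 (-2.72 and 0.36), the last from values below background on all HCC827 arrays. The test of the difference was also called for GDF15 at -4.39, BMP2 at -5.08, BAMBI at -2.48, ANGPTL4 at -1.75, MSX1 at -2.18, LEFTY1 at 3.17, BMPR1B at 1.63, COL1A1 at 4.87 and RUNX2 at 2.87. Of these, BMP2, MSX1, LEFTY1, BMPR1B, COL1A1 and RUNX2 were not well above background on every array, so their sizes are measured values only. Under the alternatives run they came as near to 0 as -1.90, -0.41, 0.39, 0.34, 1.31 and 0.70, in that order. The difference for MSX1 came mainly from HCC827 (2.02, against -0.17 in A549), as did that for LEFTY1 (-2.45, against 0.72). HEY1 was at -2.93 in A549 and 0.19 in HCC827, with replicates apart in opposite directions, a difference of -3.12 that did not pass the test.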

How the results depend on the processing

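No called difference of the 10 genes turned its direction under any alternative run, but sizes and counts of calls moved, and the cause was not tested. With normexp the differences in A549 shrank from -5.54 to -2.92 for INHBB, from -2.60 to -0.33 for FST, from -2.72 to -0.76 for BMP4, from 2.61 to 0.96 for TGFB2 and from 2.60 to 1.67 for TGFB1. Those between the lines shrank to -3.07 for INHBB, -0.47 for FST and -0.83 for BMP4, and those between the control lines to 2.88 for INHBB and 1.28 for BMP4. In A549 the 5 calls among the 10 genes became 2 with normexp, 2 with no filter, 1 with the filter that keeps a probe only if no array has it dim (the strict filter, where 4 of the 10 were tested), 0 with the methods' t-test and 2 with TRIM58-WT replicates 2 and 3 averaged. With normexp FST was among the calls lost and TGFB1 was not, and with the strict filter TGFB1 was the call left. The 19 calls among other pathway genes became 10, 9, 10, 0 and 5 under these, 31 with slide as a random block and mock arrays separate, 30 with slide as a fixed block and 34 without mock replicate 3 and TRIM58-WT replicate 1. In HCC827 the 1 call among other pathway genes became 2 with quantile normalization, 6 with a median shift, 4 with the strict filter, and 0 with no filter or the methods' t-test. For the difference between the lines, the 9 calls became 4 with normexp, 4 with no filter, 3 with the strict filter and 4 with TRIM58-WT replicates 2 and 3 averaged, and the 3 calls among the 10 genes became 0 with the strict filter. Between the control lines, the 41 calls became 18 with normexp, 20 with the strict filter and 23 with the methods' t-test, which called 1 of the 10 genes in place of 3. With each replicate left out in turn, the calls among the 10 genes ranged from 2 to 5 in A549, from 0 to 0 in HCC827, from 2 to 5 for the difference between lines and from 2 to 4 between control lines. Among other pathway genes these ranges were 2 to 26, 0 to 4, 1 to 19 and 30 to 42.

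The replicate numbers gave no clear pairing of the samples, by the correlation of deviations from the group mean. Same-numbered A549 replicates were at 0.50, -0.42 and 0.50, and TRIM58-WT 2 with mock 3 was at 0.57. Same-numbered HCC827 replicates were at 0.08. With 2 replicates per group the crossed pairs there have the same value with the opposite sign, so this is a single value. With the replicate number as a block, 5 of the 10 genes and 17 other pathway genes were called in A549, and 0 and 0 in HCC827. Genes below background have only a bound, and the number of arrays limits all comparisons.

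Over all probes, the 1171 called in A549 became 507 with normexp, 609 with no filter, 673 with the strict filter, 24 with the methods' t-test, 333 with TRIM58-WT replicates 2 and 3 averaged, 1844 with slide as a random block, 1802 with it as a fixed block and 3808 without mock replicate 3 and TRIM58-WT replicate 1, and from 301 to 1957 without 1 replicate. A median shift moved the share of higher calls from 50.5% to 25.6% in A549, from 32.9% to 45.7% in HCC827 and from 47.4% to 27.9% for the difference between lines. The 173 called in HCC827 became 633 with a median shift, 106 with normexp, 367 with the strict filter, 0 with no filter, the methods' t-test or the block, and from 0 to 831 without 1 replicate. The 796 called for the difference between lines became 527 with a median shift, 452 with no filter, 394 with the strict filter and from 208 to 2088 without 1 replicate. The 5906 called between the control lines became 3046 with normexp, 3434 with the strict filter and 3003 with the methods' t-test.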
